A study of Homo sapiens and Mus musculus with 20 samples.

Results

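The 10 matrix-binding integrin genes described here were ITGA1, ITGA2, ITGA3, ITGA4, ITGA5, ITGA11, ITGAV, ITGB1, ITGB3 and ITGB5, chosen by symbol as the alpha and beta subunits of receptors for the matrix. They are 10 of 26 integrin subunit genes considered and 10 of 17554 genes listed in at least 1 of 3 RNA-seq experiments on IMR90, a human fetal lung fibroblast line, and all 10 were listed in each experiment. Every library was labelled as wild-type IMR90 fibroblasts from lung. In the first experiment, cells given A485, an inhibitor of the acetyltransferase p300, were compared with untreated cells labelled Control2. In the second, cells given MS-275, which blocks class I HDAC enzymes (histone deacetylases), were compared with untreated Control3 cells. In the third, Pyruvate cells were compared with untreated Control6 cells, and the study describes the cells that received pyruvate as senescent. Each group held 2 libraries, and the labels did not state that these came from separate cultures, so p-values measure only the spread between these libraries. Doses and times were not given in the labels. The line is a single donor's cells and limits every group as a model to that background.

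Integrins are membrane receptors made of an alpha and a beta subunit that grip the extracellular matrix outside the cell and, through adaptor proteins, the actin skeleton inside it. The alpha subunit largely sets the ligand. ITGA1, ITGA2 and ITGA11 encode alpha subunits that bind collagens, ITGA3 a laminin-binding subunit, ITGA5 the classical fibronectin receptor subunit, ITGA4 a subunit for fibronectin and VCAM1, and ITGAV a subunit that recognises the Arg-Gly-Asp motif in fibronectin, vitronectin and other proteins. ITGB1 is the common partner of most of these alpha subunits, while ITGB3 and ITGB5 pair with ITGAV. In fibroblasts, integrins carry adhesion, migration, matrix assembly and the activation of latent TGF-beta.

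The upstream sequences of 3 members are shown because ITGA11 and ITGA2 had the largest falls under A485, while ITGB1, the shared partner, did not pass the test. Each stretch is the part of the RefSeq promoter window (GRCh38.p14) nearest to the start of the canonical transcript that overlaps no annotated exon. For ITGB1 this start lies inside the annotated span of the gene. The stretches are written 5′ to 3′ on the gene's strand, with GC boxes (GGGCGG on either strand) in capitals. The ITGA2 stretch lies at chr5:52989180-52989339 on the plus strand, the ITGA11 stretch at chr15:68432164-68432323 on the minus strand, and the ITGB1 stretch at chr10:32958326-32958436 on the minus strand.
ITGA2: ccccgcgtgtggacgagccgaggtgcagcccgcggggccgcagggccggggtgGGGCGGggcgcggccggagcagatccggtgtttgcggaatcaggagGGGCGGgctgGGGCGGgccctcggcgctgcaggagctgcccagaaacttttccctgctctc
ITGA11: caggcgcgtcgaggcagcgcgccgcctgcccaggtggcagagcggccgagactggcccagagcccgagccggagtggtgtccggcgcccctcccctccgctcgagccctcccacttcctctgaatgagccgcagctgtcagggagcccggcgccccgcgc
ITGB1: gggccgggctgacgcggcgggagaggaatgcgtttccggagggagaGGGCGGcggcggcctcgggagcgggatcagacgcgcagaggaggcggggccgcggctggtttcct

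Promoter windows were found for 8 of the 10 members, with no entry for ITGA3 and ITGB3. In the 250 bases before the start, the GC box occurred in 4 of the 8 members, 4 times in ITGA2, 3 times each in ITGB1 and ITGB5 and 1 time in ITGA5, beside 42.6% of 35116 RefSeq promoters. The AP-1 motif TGANTCA (N is any base) occurred in 0 of 8, beside 6.57% of promoters, and the TATA box TATAAA, read on both strands, in 0 of 8, beside 10.7%. Of the members, ITGA1 (chr5:52787916-52959209) and ITGA2 (chr5:52989340-53094779) lie close to each other on the plus strand in hg38, and ITGA11 (chr15:68296532-68432163) and ITGB1 (chr10:32887273-33005792) are minus-strand genes of 30 and 16 exons in their canonical transcripts. GC content of the promoter windows ran from 62.0% in ITGA1 to 78.4% in ITGB1. No measurement of binding or of histone marks at these windows was used here, so the matches describe letters only.

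Read depth was 24179065 to 46971227 reads per library. The fibroblast markers COL1A1, COL1A2, COL3A1, PDGFRA, PDGFRB, DCN, LUM, THY1, VIM and FAP were listed in all 3 experiments, 10 of 10. Among the markers of other types, CDH1, KRT5, KRT14, SFTPC, PECAM1, CDH5, PTPRC, CD3E and ITGAM were not listed in any. Genes with few reads had been left out of the lists. Of the 14 markers of these types, EPCAM, the endothelial genes VWF and TEK, and 1 leukocyte gene (LYZ or CD79A) were listed under A485 and MS-275, and VWF and TEK under Pyruvate. EPCAM was at 64.2 and 47.7 normalized counts in Control2 and 208 and 177 in A485, and at 5.98 to 17.8 in the MS-275 experiment. Summed VWF and TEK were 508 and 1277 in Control2 against 189 and 119 in A485, 774 and 1383 in Control3 against 559 and 630 in MS-275, and 481 and 358 in Control6 against 1469 and 1448 in Pyruvate. The summed leukocyte genes stayed between 1.98 and 21.4 where listed. The part of these genes in the integrin differences was not tested. Values are normalized read counts, made comparable within an experiment but not across experiments. In bulk RNA, a smaller number of cells expressing a gene and less of its RNA per cell cannot be told apart.

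Levels were first compared between members per kilobase of the canonical transcript. ITGB1 had the highest level of the 10 in 5 of the 6 groups. In Control2 its level was 40961 and 54357 normalized reads per kilobase in the 2 libraries, 76.0% of the summed level of the 10 genes. ITGA5 followed at 5726 and 6028, clear of both neighbours. ITGA3, ITGAV, ITGB5 and ITGA2 came next, and each overlapped its next neighbour in this order except ITGA2, which stood above ITGA1 at 861 and 698. ITGB3 was at 377 and 361, and ITGA11, at 152 and 294, overlapped ITGA4, at 187 and 182. The Control3 libraries had the same first 2 genes and ITGA4 as the lowest, at 115 and 72.7, and the ranges of neighbours overlapped at 5 of the 9 steps between.

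Control6 had another order. ITGA5 led at 8337 and 7693 normalized reads per kilobase, ITGB5 was the next at 4251 and 4131, and ITGB1 was the third at 3354 and 3163, 17.9% of the summed level. Only ITGA2 and ITGAV overlapped as neighbours there. ITGA1, at 19.2 and 20.1, and ITGA4, at 5.79 and 8.64, were the lowest. The transcripts of ITGA5, ITGB5 and ITGA3, at ranks 1, 2 and 4, have 58.0%, 54.6% and 60.9% GC. Those of ITGA2, ITGAV, ITGA1 and ITGA4, at ranks 7 to 10, have 38.3% to 40.1%, and ITGB1, at rank 3, has 39.5%. Fold changes between Pyruvate and Control6 followed GC content, and its part in this order was not tested.

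ITGB1 was also set against the sum of the 7 alpha subunit genes within each library, which does not depend on the scaling between libraries. The ratio was 3.34 and 3.97 in Control2, 5.67 and 4.18 in A485, 3.95 and 4.68 in Control3 and 3.17 and 3.71 in MS-275. It was 0.308 and 0.316 in Control6 and 2.11 and 2.09 in Pyruvate. The A485 libraries lay above Control2, the MS-275 libraries below Control3, and ITGB1 exceeded the alpha sum in every library except those of Control6. In the Pyruvate experiment the ratio sets a transcript of 39.5% GC against a sum led by ITGA5, of 58.0% GC, and fold changes there followed GC content: with the trend over GC and length removed, the log2 fold change of ITGB1 went from 1.99 to 0.19 and that of ITGA5 from -1.03 to -0.38. The ratio was not tested.

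**Figure D1:**
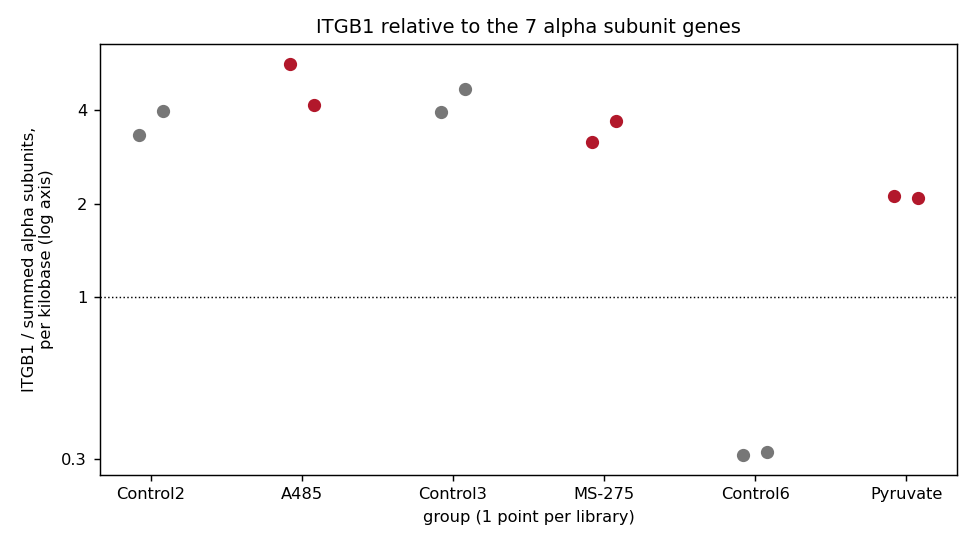
ITGB1 level divided by the summed level of ITGA1, ITGA2, ITGA3, ITGA4, ITGA5, ITGA11 and ITGAV, each per kilobase of transcript, on a log axis, with 1 point per library; grey points are untreated and red points treated libraries, and the dotted line marks a ratio of 1. The 2 Control6 points lie at 0.308 and 0.316, and the other 10 libraries lie between 2.09 and 5.67.

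The A485 comparison asked how integrin expression differed when p300 was inhibited. Of the 10 members, 5 fell: the 3 collagen-binding subunits ITGA1, ITGA2 and ITGA11, the fibronectin receptor subunit ITGA5, and ITGB3. A gene was called where its limma adjusted p, over all 16084 genes tested, was under 0.05 and its log2 fold change was over 1 in size. Of all genes tested, 7.06% were called lower and 3.31% higher, and no member was called higher. ITGA3 also passed the adjusted p, at a smaller fold, which made 6 lower, beside 8.21% of all genes lower and 4.43% higher.

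ITGA11 had the largest difference. Its normalized counts were 1554 and 3000 in Control2 and 195 and 265 in A485. The groups did not overlap, although Control2 replicate 2 was well above replicate 1. The log2 fold change was -3.24 (SE 0.36, limma adjusted p = 0.00568), which is 9.48-fold lower. ITGA2 counts were 10656 and 10628 in Control2 and 2418 and 3191 in A485, a log2 fold change of -1.94 (SE 0.19, limma adjusted p = 0.00403). ITGA2 had the tightest controls of the 10 genes. ITGA1 counts were 9240 and 7491 in Control2 and 2725 and 3507 in A485, a log2 fold change of -1.43 (SE 0.20, limma adjusted p = 0.0117).

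Within ITGA1's exons, 2.69% of bases are shared with PELO, a translation quality-control gene on the same strand, and 7.47% with the antisense transcript ITGA2-AS1, and the strand setting of the counting was not given in the sources used here. PELO itself was at 4692 and 5061 in Control2 and 1963 and 1959 in A485. Per kilobase, the 3 collagen-binding subunits summed to 2372 and 2347 in Control2 and to 581 and 759 in A485. Relative to the sum of ITGA4, ITGA5 and ITGAV in the same library, this was a ratio of 0.307 and 0.266 in Control2 and of 0.130 and 0.139 in A485.

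The laminin-binding ITGA3 was at 10591 and 12231 in Control2 and 5035 and 6867 in A485. Its log2 fold change of -0.95 (SE 0.21, limma adjusted p = 0.0378) passed the p threshold and not the fold. ITGA5 was at 24335 and 25619 in Control2 and 8260 and 13067 in A485, a log2 fold change of -1.26 (SE 0.25, limma adjusted p = 0.0299). In both genes the treated libraries were below the controls, and A485 replicate 1 was the lower of the treated libraries. ITGA4 was at 1268 and 1234 in Control2 and 498 and 1009 in A485, and its log2 fold change of -0.82 did not pass (95% interval -1.67 to 0.029, limma adjusted p = 0.175). Of ITGA4's exon bases, 26.4% overlap CERKL on the other strand, which was at 4.90 to 12.5 normalized counts in these libraries.

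ITGAV was the member without a lower group. Its counts were 12827 and 18485 in Control2 and 17263 and 15694 in A485, so both treated libraries lay between the controls, and the log2 fold change was 0.096 (95% interval -0.46 to 0.65). ITGB1 was at 152990 and 203022 in Control2 and 128865 and 118818 in A485. Both treated libraries were below both controls, but its log2 fold change of -0.51 did not pass (95% interval -1.23 to 0.21, limma adjusted p = 0.297), and under quantile normalization it was 0.21.

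The ITGAV partners differed from each other in size. ITGB3 was at 2238 and 2147 in Control2 and 476 and 699 in A485, a log2 fold change of -1.92 (SE 0.24, limma adjusted p = 0.00777). ITGB5 was at 5557 and 9781 in Control2 and 3898 and 5045 in A485, and its log2 fold change of -0.73 did not pass (95% interval -1.47 to -0.0011, limma adjusted p = 0.162). Of ITGB3's exon bases, 33.2% are shared with a readthrough gene on the same strand that was not listed here.

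In 9 of the 10 members, all but ITGAV, both A485 libraries were below both Control2 libraries, beside 30.7% of all genes tested. The members' median log2 fold change was -1.11, beside 0.0088 over all genes. Scaling the libraries to equal totals shifted the all-gene median to 0.40, and the split of calls over all genes turned from 532 higher and 1135 lower to 1677 higher and 901 lower. ITGA1, ITGA2, ITGA11 and ITGB3 were still called lower then, and ITGA5 was not. With any single library left out, fewer members and fewer genes over the table were called, and no member with A485 replicate 1 left out. Each such fit leaves a group with a single library, so its calls are not read as results about the members.

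The summed fibroblast markers were 1368484 and 1530956 in Control2 and 430004 and 503673 in A485, with 9 of 10 lower at limma adjusted p under 0.05. The summed level of 10 proliferation genes was 53067 and 15228 in Control2 and 15655 and 11664 in A485, and 0 of the 10 passed. The part of either in the integrin differences was not tested.

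**Figure D2:**
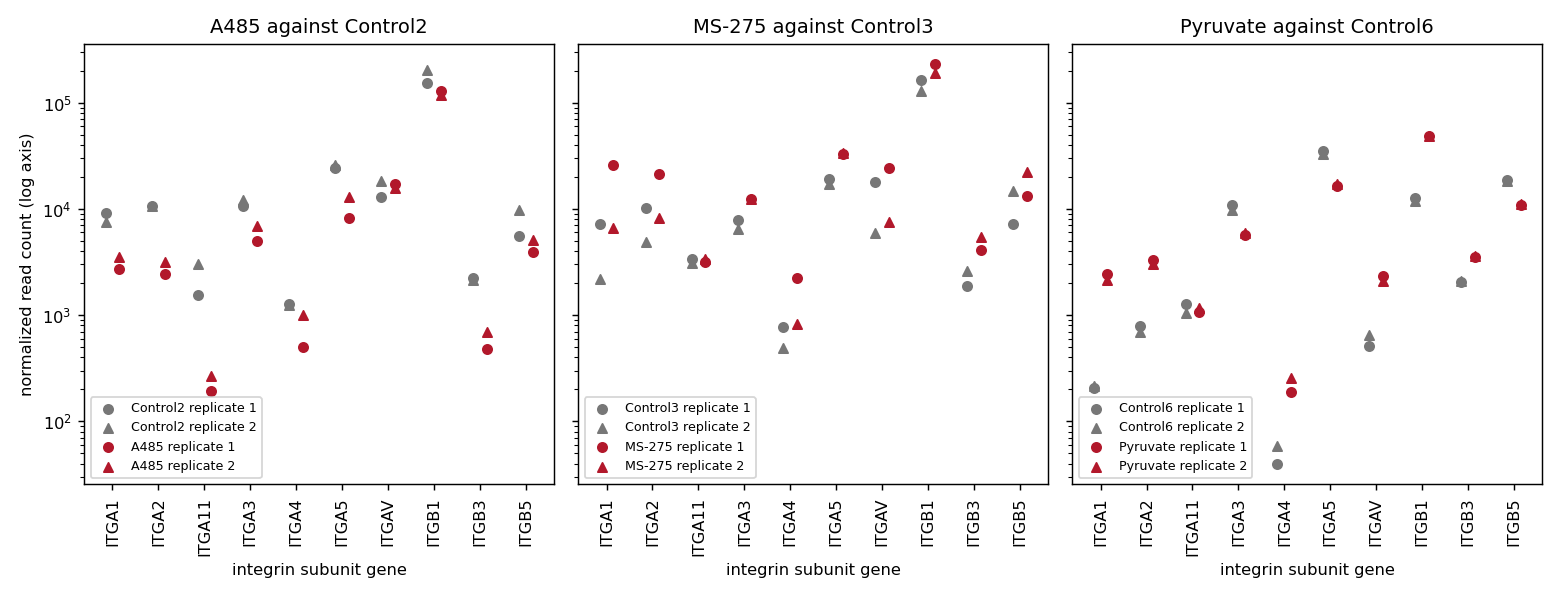
Normalized read counts (log axis) of the 10 integrin genes in each library, in 3 panels, with untreated libraries in grey, treated libraries in red, replicate 1 as circles and replicate 2 as triangles. Under A485, 9 genes have both red points below both grey points; under MS-275, circles and triangles of the same gene lie far apart for ITGA1 and ITGAV; under Pyruvate, the 2 libraries of a group lie close together.

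The MS-275 comparison asked the same of deacetylase inhibition. By limma, 0 members and 0 of 15883 genes were called (0% of all genes), while 3 members, ITGA3, ITGA5 and ITGB3, and 1730 genes (10.9%) had an unadjusted p under 0.05. All 10 members had a log2 fold change above 0, from 0.032 in ITGA11 to 1.71 in ITGA1, with a median of 0.84 beside -0.0084 over all genes. ITGA1 was called with Control3 replicate 1 left out, where calls over all genes appeared too. That fit rests on a single control library and is not read as a result about ITGA1. Count tests by edgeR and DESeq2 were not run here.

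The libraries differed by replicate number as much as by treatment for several members. ITGA1 was at 7259 in Control3 replicate 1 and 2199 in replicate 2, and at 25917 and 6569 in the MS-275 libraries. MS-275 replicate 2 thus lay below Control3 replicate 1, so the groups overlapped, and the log2 fold change of 1.71 had a 95% interval of -0.61 to 4.02. ITGAV showed the widest split against its treatment difference, with 17764 and 5982 in Control3 and 24521 and 7453 in MS-275, and a log2 fold change of 0.39 with a 95% interval of -1.69 to 2.47. ITGA2 was at 10269 and 4860 in Control3 and 21202 and 8205 in MS-275. In these 3 genes replicate 1 was the higher library of each group, and in ITGB5, at 7263 and 14617 in Control3 and 13173 and 22267 in MS-275, replicate 2 was.

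Taken within a replicate number, the differences were closer to each other. ITGA1 was 3.57-fold higher in MS-275 for number 1 and 2.99-fold for number 2. ITGB3 was 2.21-fold and 2.09-fold higher, ITGA2 2.06-fold and 1.69-fold, and ITGA4 2.87-fold and 1.68-fold. ITGA5 was 1.74-fold and 1.96-fold higher, ITGA3 1.58-fold and 1.91-fold, and ITGB5 1.81-fold and 1.52-fold. The labels do not say that a number marks a shared culture or day, so these are given as values.

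ITGB1, the common beta subunit, was 1.42-fold and 1.46-fold higher within the numbers, and ITGAV 1.38-fold and 1.25-fold. ITGA11 was the exception, at 0.954-fold and 1.10-fold. Thus 9 of 10 members were higher within both numbers, beside 38.6% of all genes tested, and ITGA1 and ITGB3 were higher by more than 1 on the log2 scale in both, beside 6.81%.

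Without regard to number, 5 members had both MS-275 libraries above both Control3 libraries, beside 19.5% of all genes. ITGA5 was at 18914 and 17140 in Control3 and 32958 and 33669 in MS-275, with a log2 fold change of 0.89 (95% interval 0.15 to 1.62, limma adjusted p = 0.375). ITGA3 was at 7895 and 6495 against 12510 and 12434, and ITGB3 at 1860 and 2578 against 4108 and 5384. The other two were ITGB1, at 162575 and 129601 against 231331 and 188989, and ITGA4, at 780 and 493 against 2242 and 829. ITGA11 values were interleaved between groups, with 3351 and 3106 in Control3, 3195 and 3406 in MS-275 and a 95% interval of -0.73 to 0.79 on the log2 scale.

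The summed proliferation genes were 22253 and 11517 in Control3 and 2654 and 1812 in MS-275, and the summed fibroblast markers 1279224 and 783239 against 1145856 and 645740. The fibroblast sums followed the replicate number, with replicate 1 the higher in each group. Their part in the integrin values was not tested.

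**Figure D3:**
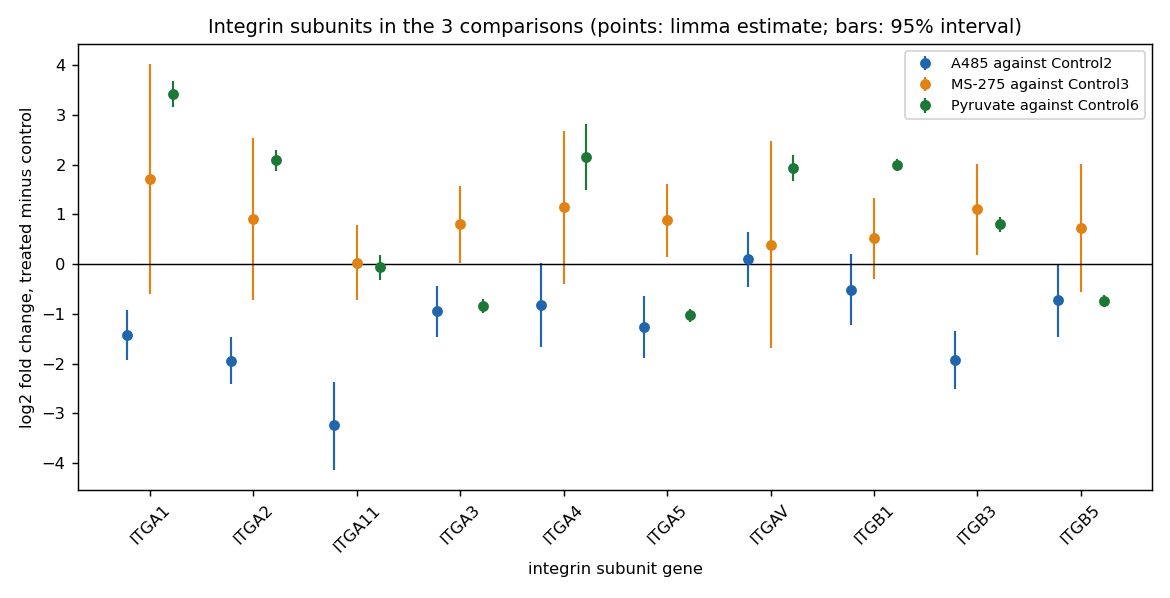
Log2 fold change of each integrin gene, treated minus control, in the 3 comparisons; points are limma estimates from 2 libraries against 2 and bars are 95% intervals. A485 points lie below 0 for all genes but ITGAV, MS-275 points lie above 0 with wide bars, and Pyruvate points lie between -1.03 and 3.43.

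The Pyruvate comparison had the most calls over all genes. Of the 10 members, 5 were called higher, ITGA1, ITGA2, ITGA4, ITGAV and ITGB1, and ITGA5 was called lower, beside 31.0% of 12013 genes called higher and 23.1% called lower. At adjusted p under 0.05 alone, ITGB3 was also higher and ITGA3 and ITGB5 also lower, beside 40.6% of all genes higher and 40.2% lower. Most genes of this experiment thus passed in either direction, and the members' count is read against that. In this comparison the log2 fold change over all genes also followed the GC content of the transcript, at a Spearman correlation of -0.72 (11888 genes, which cannot count as replicates), against -0.11 for A485 and -0.016 for MS-275.

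ITGA1 counts were 206 and 216 in Control6 and 2417 and 2144 in Pyruvate, a log2 fold change of 3.43 (SE 0.11, limma adjusted p = 5.26e-10), or 10.7-fold. ITGA2 counts were 788 and 686 in Control6 and 3280 and 3004 in Pyruvate, a log2 fold change of 2.09 (SE 0.096). ITGA11, the third collagen-binding subunit, was at 1284 and 1038 in Control6 and 1068 and 1155 in Pyruvate, which overlap, with a 95% interval of -0.31 to 0.19 on the log2 scale. In the deposited values ITGA1 and ITGA2 were higher and ITGA11 was within its spread. With the GC and length trend removed, ITGA2 was at 0.077 (limma adjusted p = 0.441) and ITGA11 at -0.24 (limma adjusted p = 0.0318).

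ITGA4 rose from 39.3 and 58.6 to 188 and 253 normalized counts, a log2 fold change of 2.16 (SE 0.30, limma adjusted p = 3.84e-05). ITGAV rose from 516 and 651 to 2354 and 2087, a log2 fold change of 1.93 (SE 0.12, limma adjusted p = 4.71e-08). ITGB1 rose from 12528 and 11813 to 48078 and 48676, a log2 fold change of 1.99 (SE 0.052, limma adjusted p = 1.21e-10). In these 3 genes both Pyruvate libraries were above both controls, beside 45.2% of 12013 genes tested. With the GC and length trend removed, their log2 fold changes were 0.12, -0.10 and 0.19, in the same order.

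ITGA5, the fibronectin receptor subunit, fell from 35433 and 32695 to 16282 and 17012, a log2 fold change of -1.03 (SE 0.056, limma adjusted p = 1.57e-08). ITGA3 fell from 10893 and 9804 to 5645 and 5884, and ITGB5 from 18875 and 18340 to 10894 and 11212. Their log2 fold changes were -0.84 and -0.75, under the fold needed for a call. ITGB3 rose from 2046 and 2071 to 3514 and 3638, a log2 fold change of 0.80 (SE 0.070, limma adjusted p = 8.12e-07), so the ITGAV partners ITGB3 and ITGB5 moved in opposite directions.

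The directions sorted by base composition. The 5 members called higher had transcripts of 38.3% to 40.1% GC, and the 3 that were lower had 54.6% to 60.9%, while ITGA11 and ITGB3 lay between at 49.6% and 49.7%. Among all 1355 genes with a GC content of 38% to 41%, the median log2 fold change was 1.88 (quartiles 1.13 and 2.59) and 77.3% were called higher. ITGA2, ITGA4, ITGAV and ITGB1 lay inside these quartiles and ITGA1 above them. Among 2471 genes of 54% to 61% GC the median was -0.90 (quartiles -1.36 and -0.37), and ITGA3, ITGA5 and ITGB5 lay inside those quartiles. Among 372 genes of 49% to 50% GC the median was -0.29 (quartiles -0.83 and 0.60), with ITGB3 above the upper quartile.

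With the trend over GC content and transcript length removed, ITGA1 was the only member called, at a log2 fold change of 1.34 (limma adjusted p = 1.54e-06), beside 14.8% of all genes called higher. The log2 fold change was then 0.077 for ITGA2, 0.12 for ITGA4, -0.10 for ITGAV and 0.19 for ITGB1, and -0.38 for ITGA5. ITGB3 was at 0.70, a value that passed the adjusted p (2.42e-06) and not the fold. In all, 7 members passed then, ITGA1, ITGA3, ITGA5, ITGA11, ITGB1, ITGB3 and ITGB5, beside 66.3% of all genes. The source of the GC trend was not tested. The A485 calls on ITGA1, ITGA2, ITGA5, ITGA11 and ITGB3 were also made with the trend removed.

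The summed proliferation genes were 4006 and 4214 in Control6 and 19502 and 19787 in Pyruvate, with 10 of 10 higher at adjusted p under 0.05, with the trend removed as well as without. The summed fibroblast markers were 898877 and 882733 in Control6 and 781629 and 784713 in Pyruvate. Their part in the integrin differences was not tested.

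**Figure D4:**
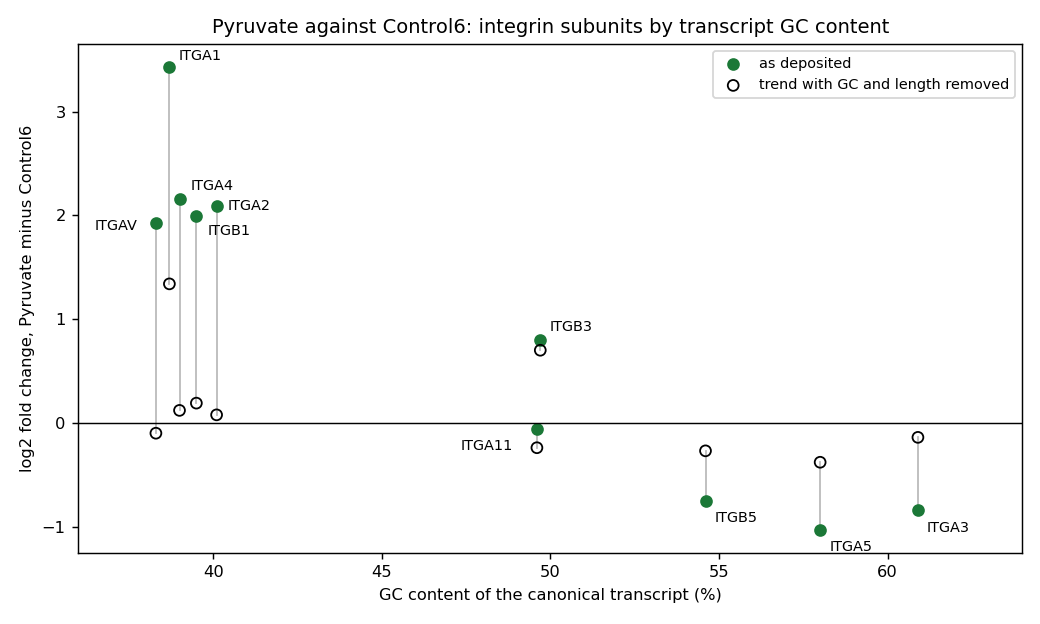
Log2 fold change, Pyruvate minus Control6, of the 10 integrin genes against the GC content of their canonical transcripts; filled points use the deposited values, open points the values with the trend over GC content and length removed, and a line joins the points of a gene. The 5 genes under 41% GC lie between 1.93 and 3.43 as deposited, and all but ITGA1 (1.34) lie between -0.10 and 0.19 with the trend removed.

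The 3 effects were then set against each other by the limma contrast of effects. The A485 and MS-275 effects differed in 4 members, ITGA3, ITGA5, ITGA11 and ITGB3, beside 3.81% of 15130 genes. The difference was -3.28 for ITGA11 (SE 0.50, limma adjusted p = 0.0166) and -3.03 for ITGB3 (SE 0.44, limma adjusted p = 0.0139), on the log2 scale. For ITGA5 it was -2.15 (SE 0.40, limma adjusted p = 0.0312) and for ITGA3 -1.75 (SE 0.37, limma adjusted p = 0.0458). ITGA1 and ITGA2 had differences of -3.14 and -2.84 with 95% intervals of -5.50 to -0.77 and -4.51 to -1.17, which did not pass over all genes (limma adjusted p = 0.165 and 0.0834). With the GC and length trend removed, both passed, beside the same 4. The share of all genes that passed with the trend removed is not given here, for this or the other contrasts. ITGAV was closest, at -0.29 (95% interval -2.44 to 1.85). These calls depended on single libraries, with 0 members passing when A485 replicate 1 or Control2 replicate 2 was left out, 1 without A485 replicate 2 or Control2 replicate 1, and 2 without MS-275 replicate 1 or Control3 replicate 2.

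The A485 and Pyruvate effects differed in 7 members, ITGA1, ITGA2, ITGA4, ITGA11, ITGAV, ITGB1 and ITGB3, beside 65.4% of 11993 genes. With the GC and length trend removed 7 members differed too, without a share of all genes to set beside them. ITGA4 (-0.89) and ITGAV (0.22) no longer passed then, and ITGA3 (-0.63, limma adjusted p = 0.0107) and ITGA5 (-0.72, limma adjusted p = 0.029) did. The difference was -3.19 (SE 0.42) for ITGA11 and -2.72 (SE 0.25) for ITGB3, the 2 members of middle GC content, and -4.85 (SE 0.23) for ITGA1. For ITGA3, ITGA5 and ITGB5, the 95% intervals with the deposited values were -0.64 to 0.42, -0.88 to 0.42 and -0.77 to 0.81. The MS-275 and Pyruvate effects differed in 3 members, beside 41.1% of 12005 genes. ITGA5 differed by 1.92 (SE 0.22) and ITGA3 by 1.64 (SE 0.23), higher under MS-275, and ITGB1 by -1.46 (SE 0.29). The spread was estimated jointly over the noisier MS-275 and the tighter Pyruvate experiment. The MS-275 effects alone had larger SEs, of 0.28, 0.3 and 0.31 in the same order. These contrast SEs thus understate the MS-275 spread, and the passes are uncertain in that respect. The ITGB1 value turned to 0.35 with the GC and length trend removed. With that trend removed, ITGA2, ITGA3 and ITGA5 passed, with ITGA2 at 0.78 beside -1.19 in the deposited values. The values of this contrast moved with single libraries left out. ITGA1, at -1.72 in the main fit, was -2.71 without MS-275 replicate 1 and -0.73 without MS-275 replicate 2. ITGB1 ran from -1.63 to -1.3, and it did not pass where either Pyruvate library was left out.

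Across the 12 libraries, with each gene's log2 values centred on its experiment's mean, the genes most like ITGB1 among 9768 were ITGB1P1 (Pearson r = 0.996), LRRFIP1 (0.989) and STK17B (0.987). ITGB1P1 is a processed pseudogene of ITGB1, and its counts were 3.74% to 4.28% of those of ITGB1 over the 12 libraries. How reads were divided between these near-identical copies was not tested, and both counts are uncertain in that respect. The genes most like ITGAV were SHOC2 and PIKFYVE (0.987 each) and PJA2 (0.986). Among the members, the closest were ITGA3 and ITGA5 (0.99), ITGA1 and ITGA4 (0.96) and ITGA1 and ITGA2 (0.95), and the most opposed were ITGAV and ITGB5 (-0.57). These are descriptions over 12 libraries that share 3 treatments and, in the Pyruvate experiment, the GC trend.

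Genes around the integrins were counted in 3 lists. Of 19 integrin ligands, 10 fell and 0 rose under A485 at limma adjusted p under 0.05, with a median log2 fold change of -1.81, beside 8.21% of all genes lower and 4.43% higher and an all-gene median of 0.0088. COL1A1, COL1A2 and COL3A1 are in both this list and the fibroblast markers. The 2 with the smallest p were LAMA4, a laminin alpha chain, at 7156 and 13045 in Control2 and 302 and 260 in A485, and POSTN, the matricellular protein periostin, at 8016 and 10888 in Control2 and 596 and 954 in A485. Of 28 adaptors, 12 fell and 0 rose, with a median of -0.94. TNS1 and TNS2, tensins that tie integrin tails to actin, had log2 fold changes of -2.19 (SE 0.18) and -2.51 (SE 0.22). Of 16 other integrin subunits, 9 were listed, 7 were tested and 0 passed, with a median of -0.30.

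Under MS-275, 0 of 19 ligands, 0 of 28 adaptors and 0 of 8 other subunits tested passed, with medians of 0.24, -0.039 and 0.58, below the members' 0.84. Under Pyruvate, 11 ligands rose and 5 fell of 17 tested, with a median of 0.39, beside 40.6% of all genes higher and 40.2% lower and an all-gene median of -0.0069. With the GC and length trend removed, 8 ligands passed as higher and 7 as lower, with a median of 0.024, beside 66.3% of all genes passing. POSTN rose from 94.3 and 110 to 1015 and 1107 and COL4A1, a basement membrane collagen, from 37029 and 33493 to 80166 and 81289, and both were called with the GC and length trend removed. CCN1, a matricellular integrin ligand, fell by 1.14 and COL3A1, a fibrillar collagen, fell by 0.78 on the log2 scale, values of -0.66 and -0.55 with the trend removed, where CCN1 was no longer called.

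Of the 28 adaptors under Pyruvate, 8 rose and 14 fell, beside the same 40.6% and 40.2% of all genes, and with the trend removed 15 rose and 10 fell. FERMT2, the kindlin that activates integrins, rose by 3.49 and LIMS1, the focal adhesion protein PINCH1, by 3.58 on the log2 scale, or by 1.86 and 1.70 with the trend removed. ZYX, the focal adhesion protein zyxin, fell by 1.16 on the log2 scale, a value that became 0.077 with the trend removed, and LIMS2 fell by 1.82, and was at -0.57 with the trend removed, where it was no longer called. Of 5 other subunits tested, ITGA6, a laminin receptor subunit, and ITGB8, a partner of ITGAV, rose by 2.44 and 2.01, and ITGA7 and ITGAE were the 2 with the smallest p of 3 that fell. ITGA7, another laminin receptor subunit, was at 295 and 304 in Control6 and 53.1 and 104 in Pyruvate, and ITGAE had a log2 fold change of -0.64. With the trend removed, ITGA6 was at 0.80 and ITGB8 at -0.065, and neither was called. ITGA7 was then at -1.24 and still called lower (limma adjusted p = 0.00354), and ITGAE was at -0.07 (limma adjusted p = 0.603).

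**Figure D5:**
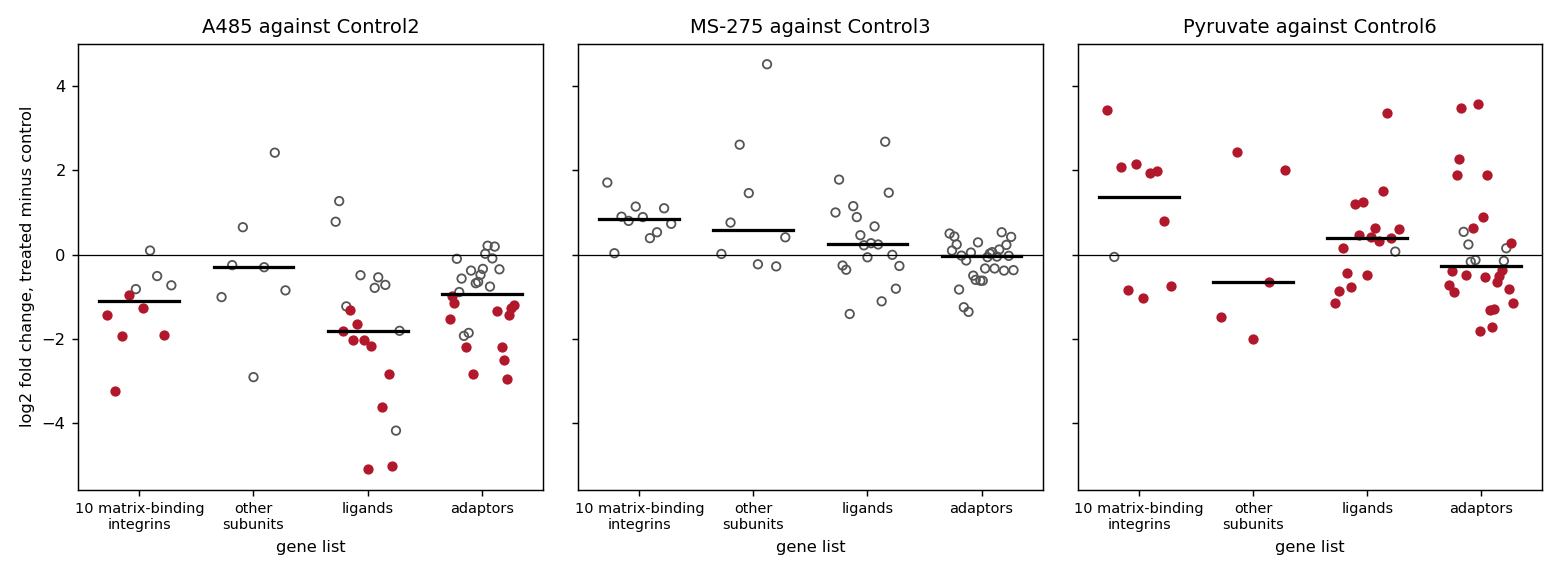
Log2 fold changes, treated minus control, of the 10 matrix-binding integrins, other integrin subunits, integrin ligands and integrin adaptors in the 3 comparisons; each point is a gene, filled where limma's adjusted p was under 0.05, and bars are medians. Under A485 the medians are -1.11, -0.30, -1.81 and -0.94 and no filled point lies above 0; no point is filled under MS-275.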

How the data were processed

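RNA-seq libraries of IMR90 fibroblasts were analysed, 2 per group. The labels name Trim Galore 0.6.10, HISAT2 2.2.1, SAMtools 1.7, featureCounts 2.0.6 and DESeq2 1.34.0; the annotation and strand setting are not given in the sources used here. The authors deposited read counts divided by DESeq2 size factors, a signal scaled within each experiment. From these values, whole reads were recovered (100% within 0.01 read). Values were tested as log2(value + 1) for genes with a mean of at least 10, by limma 3.58.1 with an intensity trend (R 4.3.3) and Benjamini-Hochberg adjustment, on the 4 libraries of a comparison. Fold changes on this scale understate changes of low genes. Differences between effects were limma contrasts over 8 libraries, with a shared estimate of the spread for both experiments. Count tests (edgeR 4.0.16, DESeq2 1.42.0) were alternatives for A485 only, where whole reads passed an independent check in all 4 libraries. Transcript lengths and GC content come from GENCODE on hg38, the build the authors mapped to, matched by symbol for 98.4% to 99.0% of listed genes. The script was tested on simulated data. Intervals cover these libraries only.

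All 10 members are named. In each of 3 lists, the 2 genes with the smallest p in each direction among those with adjusted p under 0.05 are named, and for ITGB1 and ITGAV the 3 genes with the highest Pearson r. Members and lists were chosen with earlier results of these data known. Muscle libraries of the series were not used here.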

Additional observations from a re-analysis of the deposited data

How the results depend on the processing

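Of 980 values of single members recomputed under the alternatives, 943 kept their direction and 37 reversed. Members called under A485 were 3 without the intensity trend and 0 to 2 with single libraries left out; genes called were 840 without the trend, 2578 with equal library totals and 117 to 844 with single libraries left out. Members called under MS-275 were 1 in 1 fit over 12 libraries (487 genes) and 0 to 1 with single libraries left out (0 to 419 genes). Under Pyruvate, removing the GC and length trend left 1 member and 3441 genes called. Members whose A485 and MS-275 effects differed were 2 with equal library totals, 2 with quantile normalization and 0 to 3 with single libraries left out. For MS-275 against Pyruvate they were 2 to 8 with single libraries left out.

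The labels do not say that replicate numbers pair cultures. Deviations of same-numbered libraries from their group means correlated at 0.316 for A485, 0.728 for MS-275 and 0.002 for Pyruvate over genes. With the replicate block, MS-275 had 3 members called (ITGA1, ITGA4 and ITGB3), beside 2183 genes called. At adjusted p under 0.05 alone there were 9 members, beside 6245 of 15883 genes. With the GC and length trend also removed, 3 members and 2027 genes were called. With the block, 9 members differed between the A485 and MS-275 effects and 9 between MS-275 and Pyruvate. The shares of all genes that differed in these blocked contrasts are not given here. The block together with the trend removed left 1 member and 3478 genes called for Pyruvate. With the block alone, 5 members were called for A485, beside 2486 of 16084 genes, against 1667 genes in the main fit. For Pyruvate, 6 members were called with the block alone, beside 6513 of 12013 genes, against 6503 genes in the main fit.

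Some reversals were of values near 0. Larger values reversed too, such as ITGAV under Pyruvate, from 1.93 to -0.10 with the GC and length trend removed. Under A485, ITGB1 was 0.21 with quantile normalization and ITGAV -0.17 without Control2 replicate 1, the lowest with single libraries left out. Under MS-275, ITGA11 was -0.11 with equal totals, -0.00095 with quantile normalization, -0.09 with the trend removed, with or without the block, and -0.022 to 0.087 with single libraries left out; ITGAV was -0.47 to 1.25, below 0 without MS-275 replicate 1 and, at -0.39, without Control3 replicate 2. Under Pyruvate, ITGA11 was 0.25 with equal totals and -0.21 to 0.096 with single libraries left out, and ITGAV was -0.10 with the trend removed, with or without the block. For A485 minus MS-275, ITGAV was 0.24 with equal totals, 0.36 with quantile normalization and -1.15 to 0.56 with single libraries left out, and ITGB1 was 0.0022 with quantile normalization. For A485 minus Pyruvate, ITGAV was 0.22 with the trend removed, ITGB5 was -0.14 with quantile normalization, -0.28 with the trend removed and -0.39 to 0.43 with single libraries left out, where ITGA3 ran from -0.33 to 0.11 and ITGA5 from -0.56 to 0.098. For MS-275 minus Pyruvate, the main values were -1.72 for ITGA1, -1.19 for ITGA2, -1.02 for ITGA4, -1.54 for ITGAV and -1.46 for ITGB1. Removing the trend gave 0.29, 0.78, 0.99, 0.47 and 0.35 in that order, and ITGA2 then passed (limma adjusted p = 0.0214). Equal totals gave -0.36 for ITGA11 and -0.15 for ITGB3. Leaving out single libraries took ITGA11 as low as -0.064. The causes were not tested.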
